A study of Mus musculus with 4 samples.

Results

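The Serpina3 antichymotrypsin cluster is a run of neighbouring serine protease inhibitor genes on mouse chromosome 12, measured here in lung RNA of castrated and sham-operated mice with and without inhaled elastase. Its members were taken as every non-control probe on the array whose gene name is Serpina3 followed by 1 letter. That gave 15 probes of 11 genes (Serpina3a, b, c, f, g, h, i, j, k, m and n) among 56605 probes, which were assigned to 27195 genes. The cluster was picked on the processed signals of these same 4 arrays, so all values of its members are descriptions and no test was made on them.

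Whole-lung total RNA of C57BL/6J mice was hybridised in 1 colour (Cy3) to 4 Agilent arrays. Sham-operated mice made up the groups sham/PBS and sham/PPE and operated mice the groups ORX/PBS and ORX/PPE, each named for the inhaled agent (PBS, a saline buffer, or PPE), and the labels give 3 weeks for the administration. ORX is read as orchiectomy and PPE as porcine pancreatic elastase, because the title of the series speaks of testosterone deficiency and of elastase-induced emphysema. Each group had 1 array, and each array held RNA pooled from 5 mice, so the difference between 2 arrays has no replicate check and the spread between mice was averaged out before it could be measured. The age of the mice is not given in the sources used here. In pooled whole-lung RNA, fewer cells that make a transcript and less transcript per cell cannot be told apart.

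Serpins trap a protease by offering it a reactive centre loop: the protease cuts the loop, stays bound to the inhibitor and both are inactivated. Humans have a single antichymotrypsin gene, SERPINA3, whose product inhibits chymotrypsin-like proteases such as neutrophil cathepsin G and mast cell chymase, whereas in mice the locus has been duplicated many times and the reactive loops of the copies have diverged. Several of the copies are acute phase genes that respond to interleukin 6 through STAT3 and to glucocorticoids, and the liver is the main source of those found in plasma. In the emphysema field the better known member of the clade is alpha-1 antitrypsin, the inhibitor of neutrophil elastase encoded nearby by the Serpina1 genes.

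The copies are alike enough that the identity of a probe matters, so the probes of the 3 genes Serpina3h, Serpina3i and Serpina3k are shown first. They are 60 bases long and are written 5′ to 3′ as on the array. The files place the Serpina3h probe at chr12:105491733-105491792, the Serpina3i probes at chr12:105504738-105504797 and chr12:105506705-105506764, and the Serpina3k probe at chr12:105582408-105582466, all on build mm9 and on the plus strand as listed. Capitals mark the longest run of bases that the Serpina3h probe shares with the second Serpina3i probe.
Serpina3h: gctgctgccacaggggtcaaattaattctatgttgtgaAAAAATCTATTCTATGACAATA
Serpina3i, first probe: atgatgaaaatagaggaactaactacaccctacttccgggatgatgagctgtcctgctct
Serpina3i, second probe: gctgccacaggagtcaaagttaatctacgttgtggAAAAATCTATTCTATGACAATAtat
Serpina3k: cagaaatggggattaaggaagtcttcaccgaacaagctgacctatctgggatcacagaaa
The shared run is 22 bases long, and over the best alignment of both probes 53 of 56 bases were identical. RefSeq lists Serpina3h as a pseudogene that is transcribed. The first Serpina3i probe has no run of more than 7 bases in common with any probe of another Serpina3 gene. Serpina3i was thus read by 1 probe that resembles the Serpina3h probe and by 1 that does not. Probes were compared with each other and not with whole transcripts, so whether the first Serpina3i probe also reads Serpina3h was not tested.

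Serpina3f was read by a pair of probes that do not stand for the same transcripts. The dimmer one is listed for Serpina3f transcripts alone. The brighter one, which represents the gene by the rule used for all genes, is listed for Serpina3f transcripts and for the Serpina3h transcript as well. The files place it 823 bases from the Serpina3h probe and 33.6 kb from the other Serpina3f probe. It is called the shared probe of Serpina3f and Serpina3h below. Of the 3 Serpina3a probes, 1 was above background on all 4 arrays and the other 2 were not well above background on any array. From the first to the last probe, the cluster as placed by the files covers 297 kb.

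Signals are given as the processed signal of the scanner software after scaling, with the 75th percentile of each array set to 1000. Probes differ in how well they bind, so signals are compared between arrays within a probe and never between probes. Differences are in log2 units, and a gene was counted as higher or lower where it was at least 2-fold apart. The ± after a difference is the error that the software's error model gives, which includes a preset 10 percent multiplicative error and says nothing about mice. All 11 genes were well above background on all 4 arrays, and no filter removed a member. Their data are taken in the order of ORX against sham, then PPE against PBS, since the first held the wider differences.

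The sham/PPE array stood apart in the summed markers of 3 tissues outside the lung, heart muscle, fat and germ cells, and not in those of pancreas and liver. Heart muscle markers summed to 109560 there and to 18532 to 46855 on the other arrays, fat markers to 8057 against 1660.1 to 2456, and germ cell markers to 2581 against 90.4 to 102. With PPE in sham, 5 of 6 heart muscle, 4 of 5 fat and 3 of 3 germ cell markers were above 0, against 52.8% of all genes. Pancreas markers summed to 226 on sham/PPE against 235 to 243, and liver markers to 3716, inside the range of 2534 to 4116. The highest signal of 10 of 11 Serpina3 genes was on the sham/PPE array, and the share of all genes with their highest signal there was not counted. The first Serpina3i probe, which does not represent its gene, was highest on sham/PBS (124 against 117). The PPE comparison in sham and the ORX comparison under PPE use the sham/PPE array, and the part of those tissues in them was not tested.

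Most genes of the cluster had less signal in the orchiectomised than in the sham-operated groups under both agents. Under PBS, 9 of 11 genes were below 0 for ORX minus sham, against 50.6% of all genes, and under PPE 11 of 11 were, against 52.9%. Under PBS 2 genes were at least 2-fold lower, Serpina3f and Serpina3i, against 1.26% of 20913 genes. Under PPE 5 were (Serpina3f, Serpina3h, Serpina3i, Serpina3k and Serpina3m), against 1.42% of 20776 genes. With normexp background correction, which also adds a constant of 50 to each signal, 0 genes were 2-fold lower under PBS and 2 under PPE (Serpina3i and Serpina3m). No member was 2-fold higher in either comparison, where 0.593% and 0.322% of all genes were. The median difference of the 11 genes was -0.66 under PBS and -0.73 under PPE, beside medians of -0.004 and -0.02 over all genes. A 1.5-fold lower value was reached by 6 genes (Serpina3c, f, h, i, k and m) under PBS, against 5.69% of all genes, and by the same 6 under PPE, against 4.63%. The comparisons use different arrays. In both of them, 6 members were 1.5-fold lower (0.976% of 20295 genes), 2 were 2-fold lower (0.128%) and 9 were below 0 (28.7%). The members were chosen with these differences known, so the counts describe them and support nothing further.

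**Figure D1:**
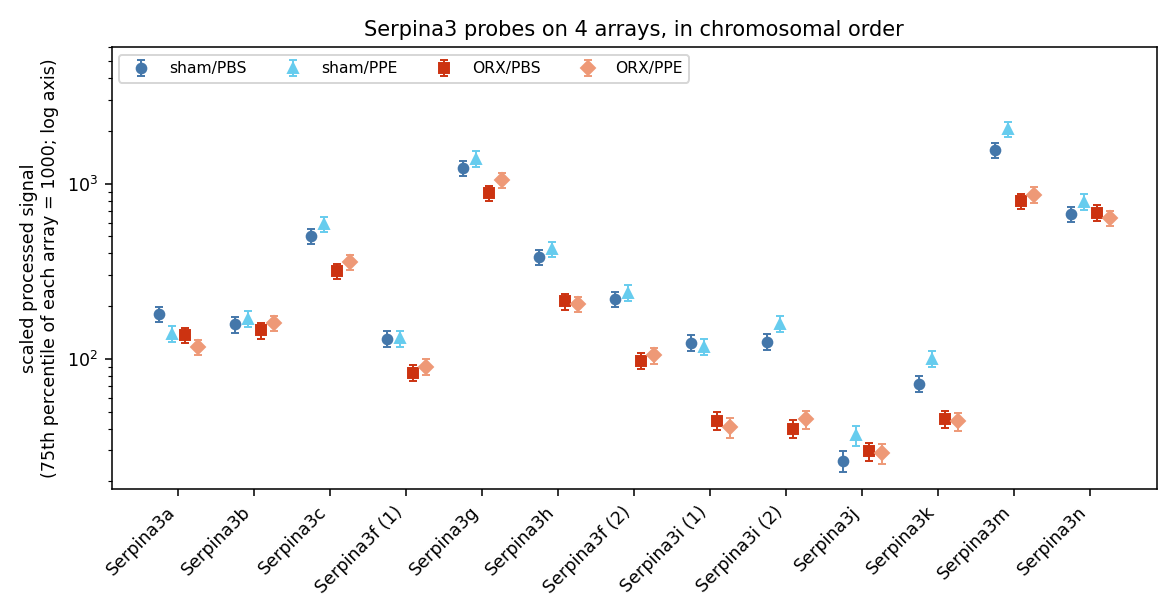
Scaled processed signal (log axis, 75th percentile of each array = 1000) of the 13 Serpina3 probes above background, in the order of their listed positions, on the 4 arrays; (1) and (2) are the probes of 1 gene, (2) of Serpina3f being the shared probe, and bars are the software's signal error. For Serpina3a, c, f, g, h, i, k and m both sham arrays lie above both ORX arrays. This order requires a value below 0 in both ORX comparisons, which 28.7% of all genes had. Its own share over all genes was not counted, so no result is read from it. Levels should be compared within a probe only.

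Serpina3i differed most. Its second probe read 125 and 159 on sham/PBS and sham/PPE, and 40.0 and 45.3 on ORX/PBS and ORX/PPE. Its first probe read 124, 117, 44.4 and 40.6 on the same arrays. With either probe both sham arrays were above both ORX arrays, with no overlap. The share of all genes with this order was not counted, here or for the genes below. It requires a value below 0 in both ORX comparisons, which 28.7% of 20295 genes had, so the order is only described. The second probe, which represents the gene, gave ORX minus sham at -1.65 ± 0.22 under PBS and -1.81 ± 0.23 under PPE, that is 3.13-fold and 3.51-fold lower. The first probe, the one that does not resemble the Serpina3h probe, gave -1.48 ± 0.22 and -1.53 ± 0.24, or 2.79-fold and 2.89-fold lower. These signals are dim: on the ORX arrays the probes stood 3.23 to 4.66 times above the lowest signal called well above background, compared with 9.01 to 12.2 times on the sham arrays. With the normexp correction (an additive background model with a constant of 50 added), the second probe came to -0.91 under PBS and -1.05 under PPE, and the first to -0.82 and -0.74. Serpina3m came to -0.90 and -1.16 with it, so under PPE Serpina3i no longer differed most.

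Serpina3m, a contrapsin-type copy, was far above background and changed little with the correction. Its probe read 1548 and 2040 on sham/PBS and sham/PPE, and 796 and 865 on ORX/PBS and ORX/PPE. Both ORX arrays were below both sham arrays, by -0.96 ± 0.20 under PBS and -1.24 ± 0.20 under PPE (1.94-fold and 2.36-fold), and normexp gave -0.90 and -1.16. Serpina3k, the contrapsin gene of mouse plasma and a gene of the liver, read 72.2, 100.3 and then 45.5 and 44.1 in the same order of arrays. With ORX it was lower 1.59-fold under PBS (-0.67 ± 0.22) and 2.27-fold under PPE (-1.18 ± 0.23). Its signal on ORX/PPE was 3.51 times the lowest one well above background, and with normexp the differences were -0.47 and -0.65.

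The transcribed pseudogene Serpina3h read 382 and 422 on sham/PBS and sham/PPE, and 213 and 205 on ORX/PBS and ORX/PPE. This put it lower by 1.80-fold under PBS (-0.85 ± 0.21) and by 2.06-fold under PPE (-1.04 ± 0.21). The shared probe of Serpina3f and Serpina3h read 219, 239, 97.7 and 105, with both ORX arrays below both sham arrays. Its differences were -1.16 ± 0.21 and -1.19 ± 0.21, or 2.24-fold and 2.28-fold lower. The probe listed for Serpina3f alone read 131, 131, 83.3 and 90.2, again without overlap. It gave -0.65 ± 0.21 under PBS and -0.54 ± 0.21 under PPE, 1.57-fold and 1.45-fold, so Serpina3f passed 2-fold by the shared probe and not by its own. With normexp Serpina3h came to -0.67 and -0.83, the shared probe to -0.88 and -0.89 and the Serpina3f probe to -0.50 and -0.45, so none of these reached 2-fold. Serpina3f encodes an inhibitor made by leukocytes, and which of both transcripts the shared probe read was not tested.

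Serpina3c, known as the kallikrein-binding protein gene, read 500.2 and 589 on the sham arrays with PBS and PPE, and 317 and 356 on the ORX arrays. Both sham values were above both ORX values, by 1.58-fold under PBS (-0.66 ± 0.20) and 1.65-fold under PPE (-0.73 ± 0.20). Serpina3g, also called Spi2A, an intracellular inhibitor of lysosomal cysteine proteases in leukocytes, read 1223 and 1389 on the sham arrays and 884 and 1044 on the ORX arrays. It was lower by a smaller margin, 1.38-fold (-0.47 ± 0.20) and 1.33-fold (-0.41 ± 0.20), and its groups did not overlap either. Normexp left Serpina3c at -0.58 and -0.64 and Serpina3g at -0.42 and -0.37.

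The 4 remaining genes did not reach 1.5-fold in either comparison. Serpina3n, the best studied acute phase member and an inhibitor of granzyme B and of cathepsin G, read 668 and 790.1 on the sham arrays with PBS and PPE, and 684 and 634 on the ORX arrays. Its ORX difference was 0.03 ± 0.20 under PBS and -0.32 ± 0.20 under PPE, and the ORX arrays overlapped the sham arrays. Serpina3b read 157 and 169.9 on the sham arrays and 145 and 160.2 on the ORX arrays, with differences of -0.11 and -0.08. Serpina3a read 179, 139, 136 and 117 in that same order of arrays, both sham arrays being above both ORX arrays, with differences of -0.40 and -0.25. Serpina3j was close to background, at 2.16 to 3.11 times the lowest signal well above it. It read 26.2, 36.6, 29.6 and 28.9, with differences of 0.18 ± 0.27 and -0.34 ± 0.27. Under normexp the PBS difference of Serpina3j turned to -0.10 and that of Serpina3n to -0.01, so no direction is given for either under PBS.

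**Figure D2:**
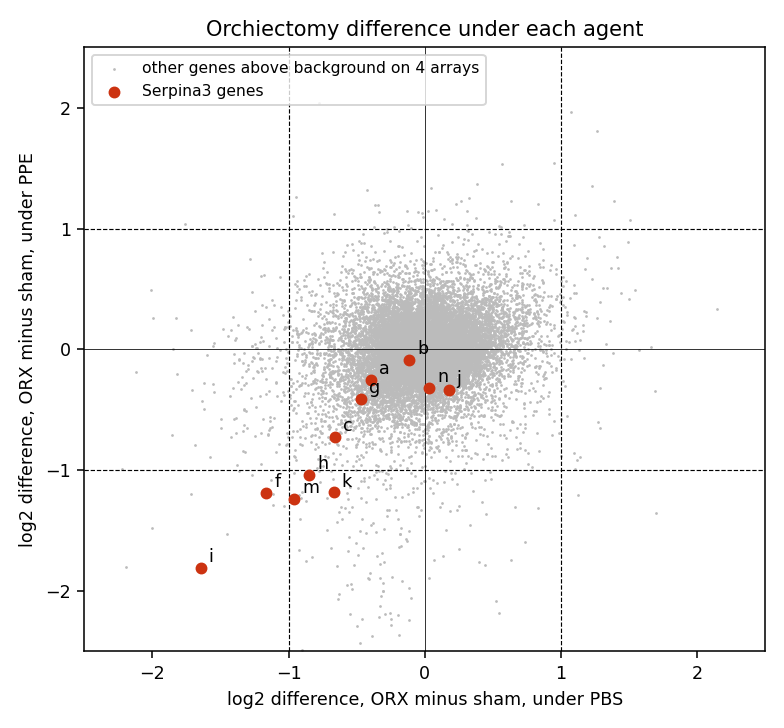
ORX minus sham in log2 units under PBS (horizontal axis) and under PPE (vertical axis), for the 11 Serpina3 genes (red, lettered) and the other genes above background on 4 arrays (grey; 17 points lie outside the axes); dashed lines mark 2-fold. Serpina3f and Serpina3i lie beyond 2-fold on both axes, and Serpina3h, k and m on the vertical axis only.

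**Figure D3:**
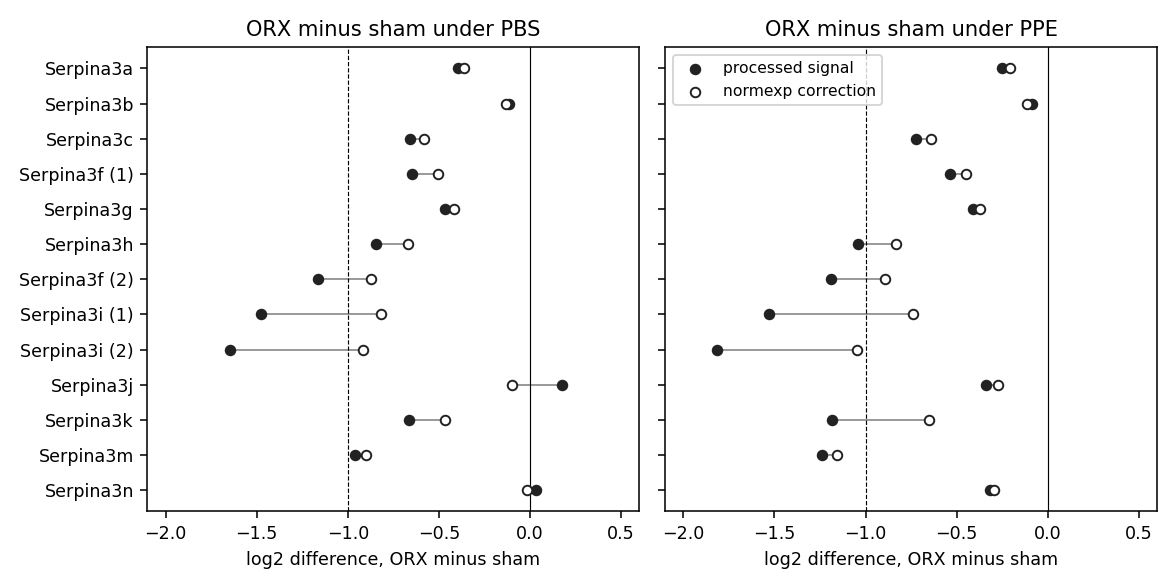
ORX minus sham in log2 units of each Serpina3 probe from the processed signal (filled) and after normexp background correction (open), under PBS (left) and PPE (right); the dashed line marks 2-fold lower. The dim probes of Serpina3i shift most in both panels, with Serpina3k next under PPE and the shared Serpina3f probe next under PBS, while Serpina3m moves from -0.96 to -0.90 under PBS and from -1.24 to -1.16 under PPE.

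Along the chromosome, lower ORX values lay at several places in the cluster. Serpina3c at 30.6 kb from the first Serpina3 probe was at -0.66 and -0.73, the probe of Serpina3f alone at 104 kb at -0.65 and -0.54, and Serpina3g at 125 kb at -0.47 and -0.41. From the Serpina3h probe at 137 kb to the second Serpina3i probe at 152 kb, all 4 probes had differences between -0.85 and -1.81 over both comparisons. The next probe, Serpina3j at 198 kb, was at 0.18 and -0.34, Serpina3k at 228 kb and Serpina3m at 278 kb were between -0.67 and -1.24, and Serpina3n at 297 kb, next to Serpina3m, stood at 0.03 and -0.32. The first 2 genes, Serpina3a and Serpina3b, were between -0.40 and -0.08. These are positions as listed for the probes, and they hold for the shared probe only if it read the Serpina3h side. The second Serpina3i probe also resembles the Serpina3h probe. Whether 1 transcript fed several of the probes between 137 and 152 kb was not tested.

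**Figure D4:**
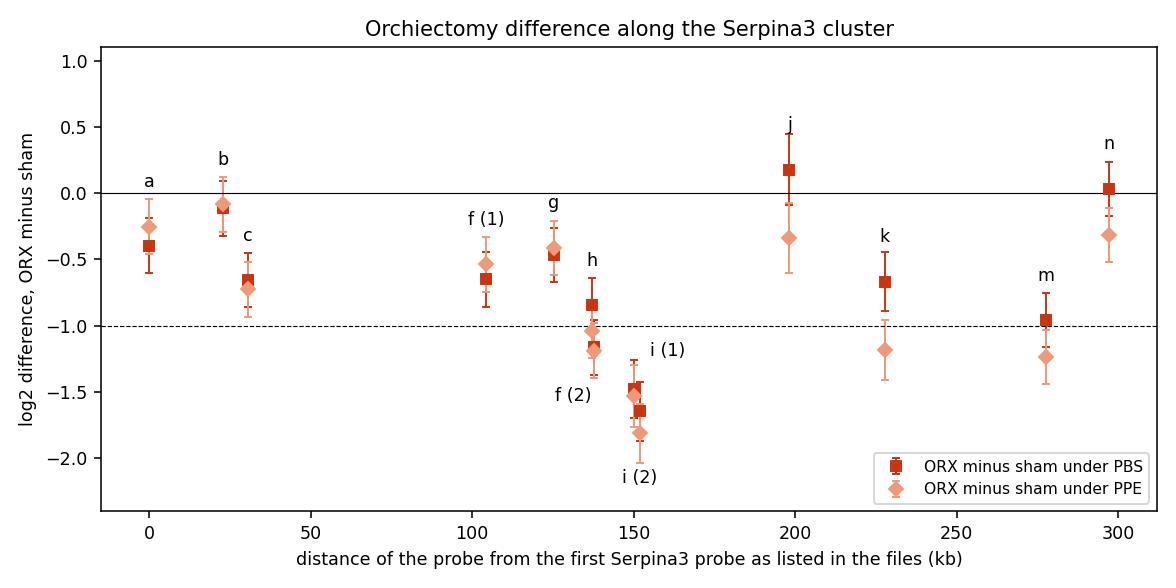
ORX minus sham in log2 units under PBS (squares) and PPE (diamonds) for each Serpina3 probe above background, against its listed distance from the first Serpina3 probe in kb; letters name the genes, bars are the software's error of a difference and the dashed line marks 2-fold lower. The lowest values are those of the Serpina3i probes at 150 and 152 kb, with Serpina3j, next in order, at 0.18 and -0.34. Serpina3m at 278 kb (-0.96 and -1.24) lies below Serpina3h at 137 kb (-0.85 and -1.04).

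PPE against PBS moved no gene of the cluster past 2-fold in either operated group. In the sham groups, 0 of 11 genes were 2-fold higher, against 1.26% of 20833 genes, and 0 were 2-fold lower, against 0.451%. There 10 of 11 genes were above 0, where 52.8% of all genes were, with a median of 0.24 and a range of -0.37 to 0.48 beside a median of 0.02 over all genes. In the ORX groups 0 were 2-fold higher (0.693% of 20792 genes) and 0 lower (0.375%), and 6 were above 0 (49.2% of all genes), with a median of 0.10 and a range of -0.22 to 0.24 beside an all-gene median of -0.0034. Both PPE comparisons use different arrays, but each shares an array with each ORX comparison, so agreement between a PPE and an ORX difference is partly built in.

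The widest PPE differences in the sham groups were those of Serpina3j at 0.48 ± 0.27, Serpina3k at 0.48 ± 0.21 and Serpina3m at 0.40 ± 0.20. In the ORX groups these genes were at -0.03 ± 0.26, -0.04 ± 0.23 and 0.12 ± 0.20, and normexp turned the values of Serpina3j and Serpina3k there to 0.14 and 0.16. Serpina3n was at 0.24 ± 0.20 in sham and -0.11 ± 0.20 in ORX. The only gene lower with PPE in both was Serpina3a, at -0.37 ± 0.21 and -0.22 ± 0.21, and the mean over its 3 probes turned the second value to 0.21. The probes of Serpina3i did not go the same way: its second probe was at 0.35 ± 0.21 in sham and 0.18 ± 0.24 in ORX, and its first at -0.08 ± 0.21 and -0.13 ± 0.24. The difference between both PPE differences (ORX minus sham) ran from -0.52, for Serpina3j and Serpina3k, to 0.14 for Serpina3a. With normexp Serpina3j and Serpina3k were at -0.17 and -0.19, and Serpina3n moved from -0.35 to -0.28. In this quantity 0 members passed 2-fold in either direction, where 1.45% of 19320 genes were higher and 1.47% lower.

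**Figure D5:**
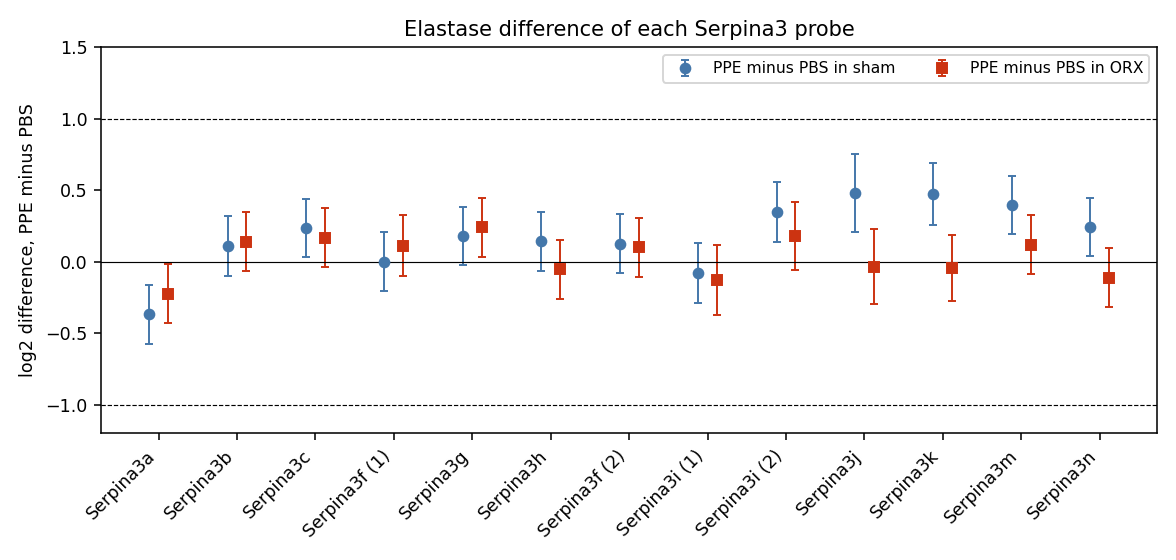
PPE minus PBS in log2 units for each Serpina3 probe above background, in the sham groups (blue circles) and the ORX groups (red squares), with the software's error of a difference; dashed lines mark 2-fold. All values lie inside the dashed lines, between -0.37 and 0.48, and the widest gap between the groups is at Serpina3j and Serpina3k.

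The 3 genes with the widest range over the arrays were Serpina3i (1.99 log2 units), Serpina3m (1.36) and Serpina3f by its shared probe (1.29). The genes on the array with the profiles most like theirs were found by the root mean square distance of log2 values centred on each gene's mean over the 4 arrays, among 19320 genes. For Serpina3m these were Sult1b1, a cytosolic sulfotransferase (0.073), Actl7a, an actin-like gene of the testis (0.084), and Il1f9, an interleukin 1 family cytokine (0.092). Serpina3f lay nearest to Serpina3m (0.104), Sult1b1 (0.124) and Serpina3h (0.128). Serpina3i had no neighbour as close: Pck1, the rate-limiting enzyme of gluconeogenesis, was at 0.227, LOC545086 at 0.232 and Ankrd22 at 0.261. Pck1 was at -2.005 for ORX under PBS and -1.48 under PPE, and Sult1b1 at -1.12 and -1.29. Most of these neighbours were close to background on the ORX arrays. Scaled log2 signals on ORX/PBS and ORX/PPE were -6.12 and -5.85 for Sult1b1 and -6.44 and -6.17 for Actl7a. They were -6.21 and -5.86 for LOC545086, -5.85 and -5.96 for Ankrd22, and -5.49 and -5.19 for Il1f9. Serpina3j, also close to background, was at -5.08 and -5.11, and Pck1 at -2.65 and -1.83. Low signal limits the distances and differences of the dim neighbours. Among the Serpina3 genes themselves, Serpina3j and Serpina3n (0.094) and Serpina3b and Serpina3n (0.103) were the closest pairs. A profile has only 4 points, and these distances are a description.

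The promoters of the cluster were looked at because many of its genes stood low on the same arrays. The RefSeq table of assembly GRCm38.p6 held 9 promoter entries for 8 of the genes, and none was found for Serpina3h, Serpina3k and Serpina3m. The 250 bases before the start are shown for Serpina3i (chr12:104262872-104263121, plus strand), Serpina3f by its first entry (chr12:104214294-104214543, plus strand), Serpina3c (chr12:104153873-104154122, minus strand) and Serpina3n (chr12:104406458-104406707, plus strand). With ORX, Serpina3i, Serpina3c and, by its shared probe, Serpina3f were at least 1.5-fold lower under both agents. The probe of Serpina3f alone was at -0.65 under PBS and -0.54 under PPE. Serpina3n was at 0.03 under PBS and -0.32 under PPE, so it was below 0 under PPE as well. Capitals mark a STAT motif, TTCNNNGAA, in the first pair and a full steroid receptor motif (GNACA and TGTNC with 3 bases between them) in the second pair.
Serpina3i promoter: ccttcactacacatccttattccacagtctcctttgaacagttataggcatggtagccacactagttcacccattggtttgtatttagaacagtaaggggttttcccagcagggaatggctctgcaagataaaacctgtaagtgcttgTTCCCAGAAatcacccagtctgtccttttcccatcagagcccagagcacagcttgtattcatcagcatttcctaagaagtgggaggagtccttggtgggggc
Serpina3f promoter: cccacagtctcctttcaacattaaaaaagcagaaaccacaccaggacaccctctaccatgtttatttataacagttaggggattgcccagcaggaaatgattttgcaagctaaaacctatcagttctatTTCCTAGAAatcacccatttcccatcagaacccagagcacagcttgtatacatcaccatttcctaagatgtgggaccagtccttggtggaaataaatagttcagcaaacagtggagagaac
Serpina3c promoter: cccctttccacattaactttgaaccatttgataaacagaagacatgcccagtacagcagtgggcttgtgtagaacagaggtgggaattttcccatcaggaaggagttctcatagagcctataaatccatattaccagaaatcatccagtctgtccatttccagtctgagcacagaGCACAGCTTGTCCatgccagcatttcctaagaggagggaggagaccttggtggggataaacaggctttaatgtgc
Serpina3n promoter: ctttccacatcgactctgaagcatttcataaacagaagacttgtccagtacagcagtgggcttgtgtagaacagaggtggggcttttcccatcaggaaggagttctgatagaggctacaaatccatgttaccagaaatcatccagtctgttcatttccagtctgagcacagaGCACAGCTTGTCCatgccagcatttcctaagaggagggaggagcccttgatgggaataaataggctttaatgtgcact

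The promoters of Serpina3c and Serpina3n were near copies, with 229 of 247 aligned bases identical (92.7%) and an unbroken run of 64 bases in common. With ORX, Serpina3c was at -0.66 and -0.73 and Serpina3n at 0.03 and -0.32, each ± 0.20, and the part of the promoters in this was not tested. The promoters of Serpina3f and Serpina3i matched at 177 of 219 bases (80.8%), and those of Serpina3c and Serpina3i at 178 of 223 (79.8%). The STAT motif, sought on both strands, was in 4 of 9 entries, those of Serpina3g, Serpina3i and both overlapping entries of Serpina3f, as TTCCCAGAA in Serpina3g and Serpina3i and TTCCTAGAA in Serpina3f. It was in 7.02% of 32851 promoter windows of the same length. The full steroid receptor motif, read as GCACAGCTTGTCC, was in 2 of 9 entries, against 0.39% of windows. Its core, AGAACA, which does not overlap the full motif in these promoters, was in 7 of 9 entries against 16.1%. The C/EBP motif TTGCNNAA was in 3 of 9 entries (9.56% of windows), the clock D-box TTATGNAA in 1 of 9, that of Serpina3n (3.07%), and the E-box CACGTG in 0 of 9 (6.02%). TATAAA was in 4 of 9 (12.4%). A match of letters is not a bound site, copies of 1 ancestral promoter share their letters, and no match says only that the letters were not in these windows.

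Genes of pathways around the cluster were counted from lists. Beside these counts stand the shares over all genes given above: with ORX, 50.6% below 0 and 1.26% 2-fold lower under PBS, and 52.9% and 1.42% under PPE, with 0.593% and 0.322% 2-fold higher. With PPE, 1.26% were 2-fold higher in sham and 0.693% in ORX. Of 22 genes of cytokine and STAT3 signalling, 0 were 2-fold apart in any comparison. Their medians with ORX were -0.17 under PBS, with 16 of 22 below 0, and -0.19 under PPE, with 18 of 22 below 0. Il6 was at -0.61 under both agents, Osm at -0.46 and -0.50 and Socs3, a target of STAT3, at -0.34 and -0.46. Above 0 were 6 of 22 under PBS and 4 of 22 under PPE, with Lifr at 0.37 and 0.30. Stat3 itself was at -0.22 and 0.02. Of the 25 acute phase genes on the array, 1 was 2-fold lower with ORX under PBS (Saa2 at -1.19) and 0 under PPE, with medians of 0.07 (0.0054 with normexp) and -0.26. With PPE, 3 were 2-fold higher in sham (Fgg at 1.38, Saa3 at 1.28 and Lcn2 at 1.25) and 1 in ORX (Saa3 at 1.37), where no Serpina3 gene was. Of 20 glucocorticoid response genes, 3 were 2-fold lower with ORX under PBS (Angptl4 at -1.64, Cdkn1a at -1.43 and Pdk4 at -1.40) and 0 under PPE, with medians of -0.25 and 0.0029. With PPE in ORX 1 of them was 2-fold higher, Pdk4 at 1.16, and in sham Lcn2. Of 23 interferon response genes, 0 passed 2-fold with ORX, with medians of 0.10 under PBS (0.02 with normexp) and -0.10 under PPE, and with PPE 1 did in sham, Cxcl9 at 1.13, and 0 in ORX.

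Of the 14 androgen response genes on the array, Rhox5, Mup1 and Mup4 were 2-fold lower with ORX under both agents. Rhox5, a homeobox gene known to respond to androgen, was at -1.04 under PBS and -1.30 under PPE, and the medians of the list were -0.13 and -0.10 over 11 and 12 measured genes. With PPE, Mup4 was 2-fold higher in sham (1.34), and in ORX Hsd3b6 was higher (1.16) and Mup1 lower (at least 2-fold, its ORX/PPE signal being not well above background). Of 18 clock genes, 6 were 2-fold higher with ORX under PBS, led by Dbp at 2.15, Hlf at 1.49, Per3 at 1.42 and Per2 at 1.39. In the same comparison 3 were lower, Arntl at -2.19, Npas2 at -1.76 and Nfil3 at -1.37. Under PPE Per2 and Cry1 (both 1.23) were higher and Arntl (-1.80) and Nr1d1 (-1.18) lower. The medians of the clock list were 0.52 under PBS (0.33 with normexp) and 0.45 under PPE, and with PPE in sham Dbp was higher at 1.62 and Npas2 at least 2-fold lower. The sham and ORX arrays thus differed in clock genes as well as in the Serpina3 genes, and the part of this in the Serpina3 differences was not tested.

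Of the 14 other clade A serpins on the array, 11 were measured under PBS and 0 were 2-fold apart with ORX, with a median of -0.08 (-0.13 with normexp). Under PPE 3 of 10 were 2-fold lower, Serpina1a at -3.39, Serpina1c at -3.06 and Serpina1e at -1.53, and the median was -0.35. These alpha-1 antitrypsin copies were higher with PPE in sham (2.23 for Serpina1a and 1.98 for Serpina1c) and lower with PPE in ORX (-1.74 and -1.40). Of 17 proteases on a list drawn up around antichymotrypsins and their relatives, 2 were 2-fold higher with PPE in sham and 0 in ORX. They were the gelatinase gene Mmp9 at 1.26 and the cathepsin S gene Ctss at 1.004. Whether a Serpina3 product binds any of the listed proteases was not tested. With ORX, the chymase gene Cma1 was 2-fold higher under PBS at 1.08, and 0 proteases were 2-fold apart under PPE.

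The lung label was checked against marker genes: all 7 alveolar type 2 markers and all 4 club cell markers were above background on every array, with summed scaled signals of 846417 to 975233 and 1040030 to 1325230. The club cell sum was lower on both ORX arrays (1040030 and 1061690) than on both sham arrays (1325230 and 1198570), with 4 of 4 markers below 0 and medians of -0.39 and -0.14. The endothelial sum was lower on the ORX arrays as well, at 90205 and 90882 against 109438 and 102139. Its markers had medians of -0.19 and -0.21, with 4 of 6 below 0 under PBS and 6 of 6 under PPE (50.6% and 52.9% of all genes). So was the alveolar type 1 sum, at 362115 and 356790 against 372805 and 390858, with medians of -0.04 and -0.13. Markers of B cells had medians of 0.87 and 0.46 with ORX under PBS and PPE, those of T cells 0.49 and 0.14, and those of neutrophils 0.65 and -0.83 (0.09 and -0.75 with normexp, the first median resting on a bound), while the leukocyte-type genes Serpina3f and Serpina3g were below 0 in both. The part of all these cells in the Serpina3 differences was not tested. Liver markers, of interest because the liver makes Serpina3k and Serpina3m, summed to 2534 and 3716 on the sham arrays with PBS and PPE and to 4116 and 3798 on the ORX arrays, and Ttr was not above background on any array. Apoa2 made up most of this sum, and was at 0.75 with ORX under PBS and 0.36 under PPE. Over the list the median with ORX was 0.59 under PBS, with 5 of 6 measured genes above 0, where Serpina3k and Serpina3m were at -0.67 and -0.96. Under PPE it was -0.59, with 7 of 9 below 0 (Ahsg at -2.18, Alb at -1.75, Gc at -0.79 and Apoh at -0.59), where Serpina3k and Serpina3m were at -1.18 and -1.24. With PPE in sham, the list's median was 0.79, with 7 of 8 above 0, and Serpina3k and Serpina3m were at 0.48 and 0.40. With normexp these medians were 0.24, -0.39 and 0.45. The part of liver transcripts in the Serpina3 differences was not tested.

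Without the sham/PPE array only the comparison under PBS is left for ORX, in which Serpina3i was at -1.65, Serpina3f at -1.16 by the shared probe, Serpina3m at -0.96, Serpina3h at -0.85, Serpina3k at -0.67 and Serpina3c at -0.66. The others were Serpina3g at -0.47, Serpina3a at -0.40, Serpina3b at -0.11, Serpina3n at 0.03 and Serpina3j at 0.18. With normexp, 0 genes were 2-fold lower in this comparison.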

How the data were processed

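Lung total RNA was pooled from 5 mice per group and hybridised to 1 Agilent array per group (design 074809), per the labels and the file headers. Per the file headers the software was Feature Extraction 10.7.1.1, and per the submitters' processing notes it was 9.5.1.1, which was not settled. The processed signal is a linear intensity after background subtraction, per the file headers, and the deposited value table holds intensity values that matched a quantile normalization. Its scale is not stated, each column's median was 71.5, and its direction followed the processed signal. Background and outlier marks (0 or 1) came from the scanner files.

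Control spots and outlier spots (31 to 54 of 59305) were left out, and no saturation was marked. After averaging the spots of a probe, log2 values were set relative to the array's 75th percentile (unscaled, 829.8 to 999). This left 20132 to 20912 genes well above background. A gene was represented by its brightest unsaturated probe, and counted where both arrays were well above background, or by a bound where 1 was. The number of arrays limits the precision. Probes with repeated spots had an SD of a difference of 0.139 for signals of 20 to 200 and 0.0894 for signals of 200 to 2000, which covers spots only.

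Members took the array's own gene names. The RefSeq table (assembly GRCm38.p6) named the other probes, 32980 through an accession, 10223 through a symbol and 520 through a synonym. Of the rest, 2574 carried only the array's name and 10293 none. Outside the cluster the text names list members at least 2-fold apart, up to 4 per direction, and the 3 nearest profiles of the 3 genes of widest range. Il6, Osm, Socs3, Lifr, Stat3 and Alb were named after their values were seen. The liver markers Gc, Apoh, Apoa2 and Ttr were named too, though they fell outside the 2-fold rule. The members, the 8 pathway lists and the 18 cell type lists were chosen with earlier results of these data known. No test between groups was made. The counting was tested on simulated data. Alternatives were normexp background correction (offset 50, limma 3.58.1 in R 4.3.3), quantile normalization, median centring, the value table, other filters, the mean over probes, a 1.5-fold threshold and, added after the data were seen, the probe of Serpina3f alone. Other steps used Python 3.11.15, numpy 2.4.6, pandas 2.3.3, Biopython 1.88 and matplotlib 3.10.9.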

Additional observations from a re-analysis of the deposited data

How the results depend on the processing

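The count of 2-fold lower Serpina3 genes moved with normexp, which changes the background model and adds a constant of 50 at once, and these parts were not separated. Under PBS the count for ORX was 2, and it was 0 with normexp, 1 with the mean over the probes of a gene, 1 with the Serpina3f probe of its own transcripts only (an alternative chosen after seeing the data) and 6 at 1.5-fold. Under PPE it was 5, and it was 2 with normexp (Serpina3i and Serpina3m), 4 with the mean over probes, 4 with the Serpina3f probe and 6 at 1.5-fold. Quantile normalization, median centring, the deposited value table and both other filters on dim probes left the counts of 2 and 5 as they were, and the counts of 0 stayed 0 under all alternatives run. Over all genes normexp also called fewer 2-fold lower: 68 against 263 with ORX under PBS and 90 against 294 under PPE, while the mean over probes called 358 and 521 and no filter on dim probes 1108 and 1301. With PPE, normexp called 58 genes higher and 9 lower in sham against 262 and 94, and 18 and 8 in ORX against 144 and 78. The split of higher and lower genes with ORX under PBS was 160 and 214 with median centring against 124 and 263, and under PPE it was 4 and 90 with normexp against 67 and 294. Of 55 single differences, normexp changed the sign of 5, the mean over probes and median centring of 2 each, and quantile normalization and the value table of 1 each. No replicate could be left out. No paired analysis was possible because each group had 1 array. The signal over background limits Serpina3j, Serpina3k and Serpina3i, the dimmest members.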
